A study of Homo sapiens with 6 samples.

Results

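The Wnt pathway genes examined here were the ligands, receptors, secreted inhibitors, TCF/LEF transcription factors and feedback genes of the human genome, chosen by gene symbol among protein-coding genes. The rule gave 55 genes of the 60676 listed in the deposited tables. The cells were SK-N-BE, a human neuroblastoma line, and RNA was taken after 1.5 days in medium with 10 μM retinoic acid, which drives the line towards a neuronal state. The control group (si-SCR, 3 libraries) received a scrambled small interfering RNA (siRNA) and the other group (si-CyCoNP, 3 libraries) pooled siRNAs to the second exon of the long noncoding RNA CyCoNP, and all 6 libraries shared the line, the retinoic acid and the time. A single siRNA pool was used, so that loss of CyCoNP and effects of the siRNAs themselves cannot be told apart. The comparison asks which transcripts need CyCoNP in these cells.

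Wnt proteins are secreted ligands that bind frizzled receptors together with the co-receptors LRP5 and LRP6. Binding disables a destruction complex built on Axin, so that β-catenin accumulates and activates genes with the TCF/LEF factors, while a separate branch through ROR1 and ROR2 works without β-catenin. The membrane ubiquitin ligases ZNRF3 and RNF43 remove frizzled receptors from the cell surface, and LGR4 and LGR5, with their R-spondin ligands, remove the ligases. In the developing nervous system Wnt signals pattern the neural tube and act on neural crest cells, from which neuroblastoma arises.

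Total counts per library ranged from 3762009 to 4799407. LINC02381, the gene of CyCoNP (ENSG00000250742), had 274, 208 and 315 counts in si-SCR against 20, 30 and 12 in si-CyCoNP, so that 7.3% of the si-SCR level remained (log2 fold change -3.78, SE 0.19, edgeR quasi-likelihood adjusted p = 6.84e-14). All 8 genes of a noradrenergic neuroblast list were tested and their summed FPKM (fragments scaled by gene length and library total) lay between 1700 and 1860 in si-SCR and between 1060 and 1110 in si-CyCoNP, with 6 genes lower and none higher (14.2% of all genes tested fell and 14.2% rose). SOX10, a defining gene of Schwann cell precursors, had no count in any library. Of 6 mesenchymal genes, PRRX1 and COL1A2 had no count in any library, FN1 rose, SNAI2 and VIM fell, and the summed FPKM was 103 to 123 in si-SCR and 99.4 to 105 in si-CyCoNP. The part of these changes in the results below was not tested, and in such bulk libraries fewer cells of a type and less RNA per cell cannot be told apart.

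Of the 55 Wnt genes, 20 passed the expression filter (group mean of 1 FPKM or more in si-SCR or si-CyCoNP) and were tested among 13966 genes. Here a gene rose or fell when its adjusted p was under 0.05 over all genes tested. Upon CyCoNP depletion 4 of the 20 rose (20.0%), namely TCF7, AXIN1, LRP6 and ROR2, against 14.2% of all genes tested. Without si-CyCoNP replicate 2 only 1 of these, TCF7, rose. The 7 that fell (35.0%) were FZD2, FZD5, FZD6, LGR4, LGR5, ZNRF3 and TCF7L2, against 14.2% of all genes tested. The median log2 fold change was -0.14 over the 20 Wnt genes and 0.01 over all genes. A change beyond 1 on the log2 scale was seen in 1 gene that rose, TCF7, against 2.28% of all genes, and in 2 that fell, FZD2 and FZD6, against 2.98%. Whether they crossed 1 depended on the setting. Over 14 alternatives TCF7 ranged from 0.60 to 1.24, FZD2 from -1.24 to -0.89 and FZD6 from -1.24 to -0.80. In 12 of the 20 the FPKM values of the groups did not overlap, which was so for 40.3% of all genes tested. These 12 were the 11 genes that passed and WNT6. On counts scaled as in the edgeR fit, the groups of ROR2 overlapped.

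**Figure D1:**
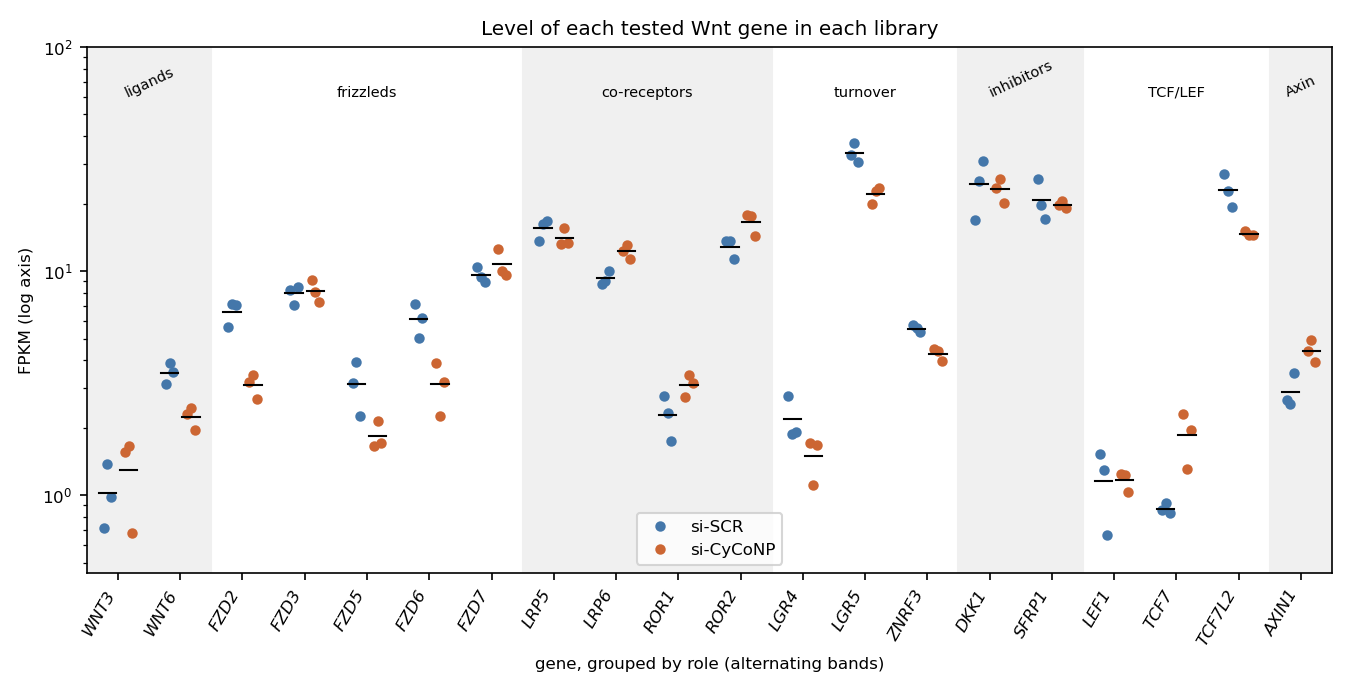
FPKM (log axis) of the 20 tested Wnt genes in each of the 6 libraries, ordered by role, with si-SCR in blue, si-CyCoNP in orange and a black bar at each group mean (n = 3). LGR5, DKK1, TCF7L2 and SFRP1 had the highest si-SCR means, and the groups separated without overlap in 12 genes, among them FZD2, LGR5 and TCF7L2.

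Among the 19 Wnt ligands, only WNT6 and WNT3 were tested and neither passed. WNT6 had 23, 25 and 29 counts in si-SCR against 19, 18 and 14 in si-CyCoNP, or 3.5 ± 0.376 and 2.24 ± 0.255 FPKM (SD, n = 3). Its groups did not overlap on either scale, yet at these counts the log2 fold change of -0.70 (95% confidence interval -1.34 to -0.06) had an adjusted p of 0.0963, while limma on log2(FPKM + 1) gave an adjusted p of 0.0354. WNT3 had 13, 22 and 20 counts in si-SCR against 32, 30 and 12 in si-CyCoNP, so that si-CyCoNP replicate 3 lay below all other libraries and the groups overlapped (log2 fold change 0.31, interval -0.42 to 1.03, adjusted p = 0.564). Together the ligands summed to 4.86 ± 0.577 FPKM in si-SCR, of which WNT6 made up 72.1%, and to 3.81 ± 0.884 in si-CyCoNP, of which WNT6 made up 60.3%. No count was found in any library for 9 ligands, which were WNT1, WNT10A, WNT16, WNT2, WNT3A, WNT7A, WNT8A, WNT8B and WNT9B. WNT5A, the ligand best known for signalling through ROR2, had 4 counts over all 6 libraries.

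The frizzled receptors were represented by 5 tested genes of 10, and 3 of them fell, against 14.2% of all genes tested. FZD2 had 91, 101 and 128 counts in si-SCR against 58, 55 and 42 in si-CyCoNP, and all si-CyCoNP values were below all si-SCR values. Its mean went from 6.6 ± 0.858 to 3.1 ± 0.381 FPKM, a log2 fold change of -1.15 (SE 0.177, edgeR adjusted p = 1.19e-05). FZD6, which is tied mostly to planar cell polarity, had 125, 77 and 120 counts in si-SCR against 76, 39 and 54 in si-CyCoNP. On the FPKM scale, which accounts for depth, its groups stood apart at 6.12 ± 1.06 and 3.12 ± 0.822 (log2 fold change -1.03, SE 0.194, edgeR adjusted p = 0.000166). FZD5 had 96, 104 and 76 counts in si-SCR against 56, 64 and 50 in si-CyCoNP, and its log2 fold change was -0.82 (SE 0.203, edgeR adjusted p = 0.00277). For FZD5 the highest si-CyCoNP library, at 2.14 FPKM, lay close to the lowest si-SCR library, at 2.26, and limma on log2(FPKM + 1) gave an adjusted p of 0.0875.

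The other tested frizzleds, FZD7 and FZD3, were the most abundant ones and did not pass. FZD7 had 173, 137 and 165 counts in si-SCR against 233, 164 and 153 in si-CyCoNP (log2 fold change 0.10, 95% interval -0.18 to 0.37, adjusted p = 0.635). FZD3, a frizzled known for its part in axon guidance, had 488, 367 and 562 counts in si-SCR against 605, 473 and 415 in si-CyCoNP (log2 fold change -0.03, interval -0.23 to 0.17, adjusted p = 0.859). Both groups overlapped widely in either gene, and the intervals leave out the changes seen for FZD2 and FZD6. The summed frizzled level was 35.8, 33.9 and 34.7 FPKM in si-SCR against 32.0, 27.1 and 25.3 in si-CyCoNP. Within that sum the share of FZD7 was 29.1%, 27.9% and 25.8% in the si-SCR libraries and 39.3%, 36.9% and 37.8% in the si-CyCoNP libraries. That of FZD3 went from 22.8% ± 1.84 to 29.0% ± 0.702. The share of FZD2 went from 19.0% ± 2.93 to 11.1% ± 1.4 and that of FZD6 from 17.5% ± 2.56 to 11.1% ± 2.36. These shares are given as a description, since an exact permutation test of 3 against 3 libraries cannot go below p = 0.1.

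**Figure D2:**
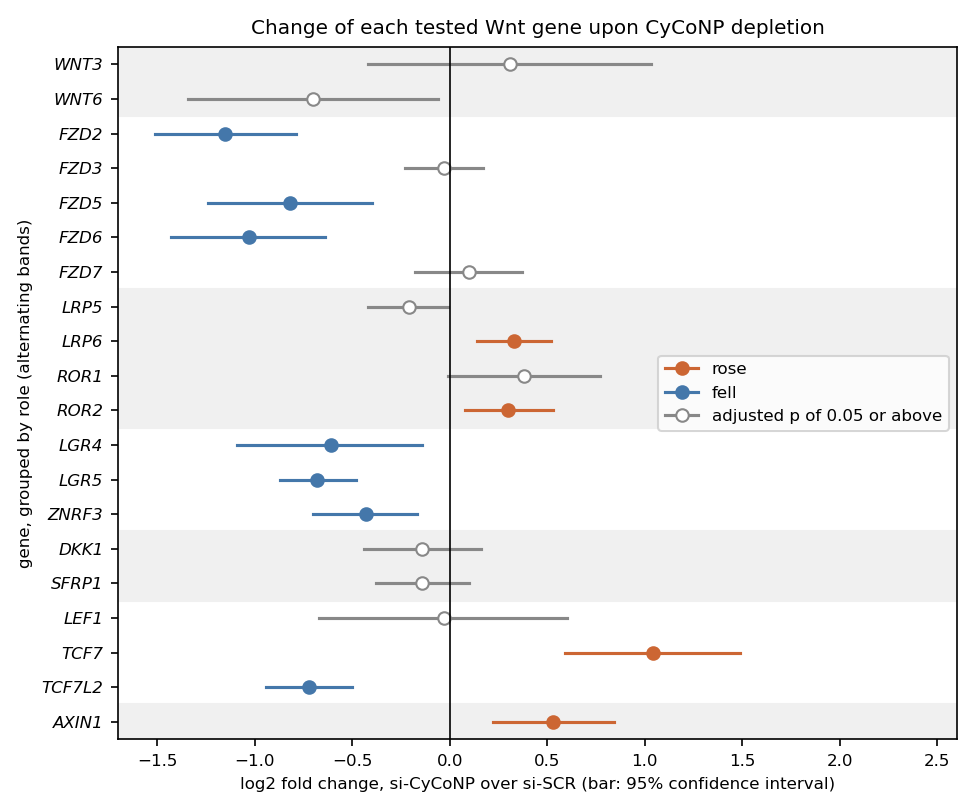
Log2 fold change of si-CyCoNP over si-SCR for the 20 tested Wnt genes, ordered by role, with 95% confidence intervals of the edgeR fit as bars. Filled points passed an adjusted p under 0.05. Those of 3 of 5 frizzled and all 3 tested receptor turnover genes lie to the left of 0 (14.2% of all genes tested fell). They run from -1.15 for FZD2 to -0.43 for ZNRF3, while the open point of FZD3 is at -0.03.

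All 4 co-receptors were tested, 2 rose by small amounts and none fell (14.2% of all genes tested rose and 14.2% fell). LRP6 had 391, 354 and 497 counts in si-SCR against 614, 579 and 486 in si-CyCoNP, and its FPKM of 9.29 ± 0.648 and 12.3 ± 0.92 did not overlap between groups (log2 fold change 0.33, SE 0.0914, edgeR adjusted p = 0.00683). Its paralog LRP5, which serves the same step, had 361, 378 and 498 counts in si-SCR against 393, 410 and 343 in si-CyCoNP, with overlapping groups (log2 fold change -0.21, interval -0.42 to -0.01, adjusted p = 0.122). The share of LRP6 in their joint FPKM was therefore 37.5% ± 1.71 in si-SCR and 46.6% ± 1.43 in si-CyCoNP. ROR2, a receptor of the branch without β-catenin, had 343, 300 and 317 counts in si-SCR against 501, 439 and 348 in si-CyCoNP (log2 fold change 0.30, SE 0.108, edgeR adjusted p = 0.0352). ROR1 had 80, 59 and 56 counts in si-SCR against 88, 98 and 88 in si-CyCoNP, and one si-SCR library, at 2.77 FPKM, reached above the lowest si-CyCoNP library at 2.73 (log2 fold change 0.38, interval -0.01 to 0.77, adjusted p = 0.142). The call of LRP6 was lost without si-CyCoNP replicate 2 (adjusted p = 0.0508), and that of ROR2 without si-CyCoNP replicate 1 (adjusted p = 0.161), si-CyCoNP replicate 2 (0.137) or si-SCR replicate 3 (0.157) and with DESeq2 (0.0922). Without si-SCR replicate 1, LRP5 and ROR1 passed (adjusted p = 0.0392 and 0.0364).

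The receptor turnover genes fell in all 3 cases that could be tested, beside 14.2% of all genes tested that fell. LGR5, an R-spondin receptor known as a stem cell marker and β-catenin target in the gut, was the most abundant of the 20 genes in si-SCR at 33.7 ± 3.3 FPKM. It had 741, 732 and 768 counts in si-SCR against 499, 507 and 509 in si-CyCoNP, and the libraries of each group lay close together with a wide gap between groups. The level in si-CyCoNP was 22.1 ± 1.92 FPKM (log2 fold change -0.68, SE 0.096, edgeR adjusted p = 3.98e-06). ZNRF3, the ubiquitin ligase that LGR5 acts on and itself a β-catenin target, had 172, 146 and 178 counts in si-SCR against 150, 131 and 115 in si-CyCoNP. In FPKM the ZNRF3 groups of 5.54 ± 0.203 and 4.28 ± 0.275 did not overlap (log2 fold change -0.43, SE 0.128, edgeR adjusted p = 0.011), and without si-CyCoNP replicate 3 the adjusted p was 0.053. LGR4, the paralog of LGR5, was the least secure of the 11 calls, with 76, 45 and 58 counts in si-SCR against 52, 30 and 44 in si-CyCoNP (log2 fold change -0.61, SE 0.231, edgeR adjusted p = 0.0462). That call was lost in 7 of 14 alternatives, among them DESeq2 (adjusted p = 0.108), library totals alone (0.0764), and the fits without si-CyCoNP replicate 2 (0.217) or si-SCR replicate 1 (0.292). RNF43, the partner ligase of ZNRF3, had no count in any library, but it shares exons on the same strand with another annotated gene, and fragments there cannot be assigned by the authors' counting.

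Secreted inhibitors counted 10 genes, of which DKK1 and SFRP1 were tested and did not pass. DKK1, which blocks LRP5 and LRP6, had 161, 211 and 330 counts in si-SCR against 250, 243 and 186 in si-CyCoNP, and the si-SCR libraries alone spanned 16.9 to 31.1 FPKM (log2 fold change -0.14, interval -0.44 to 0.16, adjusted p = 0.506). Without si-SCR replicate 1 DKK1 passed (log2 fold change -0.34, adjusted p = 0.0421). SFRP1, which binds Wnt proteins in the extracellular space, had 522, 351 and 385 counts in si-SCR against 449, 412 and 374 in si-CyCoNP (log2 fold change -0.14, interval -0.38 to 0.10, adjusted p = 0.407). Without si-SCR replicate 3 SFRP1 passed as well (log2 fold change -0.29, adjusted p = 0.0172). SFRP2, SFRP4, SFRP5 and WIF1 had no count in any library. DKK3 lay just under the filter, with 58, 51 and 36 counts in si-SCR against 33, 30 and 19 in si-CyCoNP, or a mean of 0.964 and 0.516 FPKM. When all genes with a count were tested, 20 further Wnt genes entered and DKK3 was the only one of them to pass (log2 fold change -0.94, edgeR adjusted p = 0.00219). In that fit 4033 of 26702 genes passed in either direction.

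The TCF/LEF factors, which carry the β-catenin signal to DNA, moved in different directions. TCF7L2 held 91.9% ± 0.747 of their summed FPKM in si-SCR. It had 784, 579 and 626 counts in si-SCR against 488, 414 and 405 in si-CyCoNP, or 23.1 ± 3.84 and 14.7 ± 0.354 FPKM, with every si-CyCoNP library below every si-SCR library (log2 fold change -0.72, SE 0.106, edgeR adjusted p = 6.64e-06). TCF7 was low in si-SCR at 37, 35 and 40 counts and higher in si-CyCoNP at 112, 56 and 82. The si-SCR libraries agreed closely at 0.868 ± 0.0482 FPKM while the si-CyCoNP libraries spread from 1.31 to 2.31, all above them (log2 fold change 1.04, SE 0.22, edgeR adjusted p = 0.000629), and limma on log2(FPKM + 0.1) gave an adjusted p of 0.0581. LEF1 had 35, 26 and 17 counts in si-SCR against 32, 28 and 23 in si-CyCoNP and did not pass (log2 fold change -0.03, interval -0.67 to 0.60, adjusted p = 0.956). The summed TCF/LEF level was 25.2 ± 4.28 FPKM in si-SCR and 17.8 ± 0.861 in si-CyCoNP, and within it TCF7 went from 3.51% ± 0.551 to 10.4% ± 2.43. TCF7L1 had 5 counts over the 6 libraries.

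**Figure D3:**
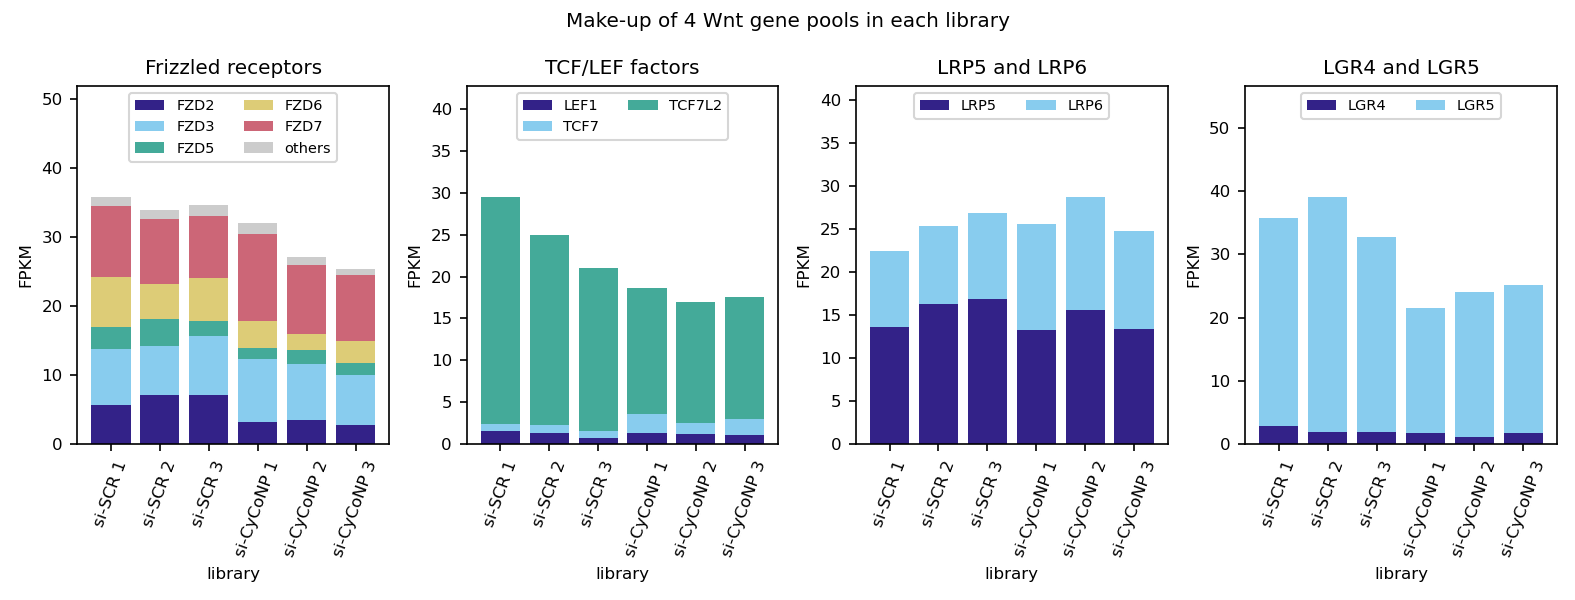
Stacked FPKM of the frizzled receptors, the TCF/LEF factors, LRP5 with LRP6 and LGR4 with LGR5 in each of the 6 libraries, with 1 bar per library and 1 colour per gene (grey: frizzleds under the filter). The frizzled and TCF/LEF bars of si-CyCoNP are lower and hold less FZD2, FZD6 and TCF7L2, while the LRP bars overlap in height (24.9 ± 2.28 and 26.3 ± 2.13 FPKM) and hold more LRP6.

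TCF7 lies on the plus strand of chromosome 5 at chr5:134114681-134151865 (GRCh38), and RefSeq gives it start sites 8005 bases apart. Shorter forms of TCF7 that lack the β-catenin-binding end are known, and counts per gene cannot tell the forms apart. The 250 bases before each start are shown because a count per gene pools transcripts from both starts, and they differ in base composition, with 70.8% G and C and 22 CpG in the first and 62.0% and 1 CpG in the second. Capitals mark TGACCT, the reverse complement of AGGTCA, to which retinoid receptors bind in pairs.
TCF7 first start, chr5:134115363-134115612, plus strand: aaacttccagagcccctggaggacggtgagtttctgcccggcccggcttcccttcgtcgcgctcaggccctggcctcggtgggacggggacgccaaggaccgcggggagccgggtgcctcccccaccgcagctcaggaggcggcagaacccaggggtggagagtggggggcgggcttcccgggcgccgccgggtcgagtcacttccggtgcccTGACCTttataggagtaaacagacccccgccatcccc
TCF7 second start, chr5:134123368-134123617, plus strand: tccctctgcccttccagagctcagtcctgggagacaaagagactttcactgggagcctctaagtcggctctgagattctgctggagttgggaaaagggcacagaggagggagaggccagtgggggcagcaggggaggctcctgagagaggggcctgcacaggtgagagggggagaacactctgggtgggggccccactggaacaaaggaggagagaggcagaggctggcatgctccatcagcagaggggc

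RefSeq promoters (250 bases before to 50 after a start, GRCh38.p14) were at hand for 37 of the 55 Wnt genes, 44 promoters in all. Only 15 of these promoters, of 12 genes, belonged to tested Wnt genes. AXIN2, LGR5, ZNRF3, NKD1, NOTUM, FZD2, FZD6 and LRP6 were among the genes without an entry and were not searched. None of the 44 held CTTTGAT, the core of a TCF/LEF site, on either strand, and 2.62% of 35116 promoters of all genes did. AGGTCA stood in 4 of the 44 (9.09%), those of TCF7, TCF7L2, WNT16 and WNT2, against 13.8% of all promoters. A direct repeat of AGGTCA with 5 bases between was not found in these windows, and 0.0057% of all promoters held it.

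AXIN1 rose and was the only tested gene among AXIN1, AXIN2, NKD1 and NKD2. AXIN1 is the scaffold of the destruction complex and is usually made at a steady level, unlike AXIN2, which is a direct β-catenin target. It had 86, 72 and 126 counts in si-SCR against 159, 157 and 123 in si-CyCoNP, or 2.9 ± 0.521 and 4.41 ± 0.483 FPKM without overlap (log2 fold change 0.53, SE 0.149, edgeR adjusted p = 0.00806), and without si-CyCoNP replicate 2 the adjusted p was 0.0537. AXIN2 had only 5, 6 and 3 counts in si-SCR against 0, 2 and 3 in si-CyCoNP, where the floor is 3 counts per library, and no change was detectable at this depth (edgeR adjusted p = 0.337 with no filter). It shares exons with another gene on the same strand. NKD1 and NKD2, which bind Dishevelled and act as feedback inhibitors, had 14 and 7 counts over the 6 libraries, and NOTUM, an enzyme that inactivates Wnt proteins, had 20.

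In all, 35 of the 55 Wnt genes were under the filter. Of these, 15 had no count in any library, FZD10 being the one not yet named, 10 had 1 to 10 counts over the 6 libraries and 10 had more. The low class, besides those given above, held WNT10B, WNT11, WNT4, WNT5B, WNT7B, WNT9A and DKK4. The highest class held DKK3 (227 counts over the 6 libraries), FZD1 (127), DKK2 (30), FZD4 (27), WNT2B (20), NOTUM (20), AXIN2 (19), FZD8 (19), FZD9 (18) and NKD1 (14). A count of 0 in these libraries allows up to 3 counts, which is 0.625 to 0.797 CPM (counts scaled to the library total) depending on the library, for counting error only.

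The study ties CyCoNP to the microRNA miR-4492, and its seed was therefore looked up in the 3′ untranslated regions of the tested Wnt genes. The mature sequence from RefSeq (chr11:118910765-118910781, plus strand, GRCh38) is shown with the seed, bases 2 to 8, in capitals.
hsa-miR-4492: gGGGCUGGgcgcgcgcc
The match of 7 bases to this seed, CCAGCCC, was found in the longest annotated region of 6 of the 20 tested Wnt genes, and in 25.1% of 10487 tested protein-coding genes. Each match is shown in capitals, 5′ to 3′ on the strand of the gene, with 8 bases on each side from GRCh38, to set it beside the change of the gene.
TCF7, chr5:134146263-134146285, plus strand: ccgctgccCCAGCCCcgttcctt
AXIN1, chr16:287869-287891, minus strand: tggagggcCCAGCCCaagtgagg
WNT3, chr17:46763707-46763729, minus strand: agtccttcCCAGCCCtgctcacc
FZD7, chr2:202036393-202036415, plus strand: ttcccaccCCAGCCCtcttgcaa
ZNRF3 first match, chr22:29054244-29054266, plus strand: atgcctctCCAGCCCacgccttt
ZNRF3 second match, chr22:29056676-29056698, plus strand: caagtgacCCAGCCCtggctgta
TCF7L2, chr10:113165922-113165944, plus strand: gccgggacCCAGCCCcagccgct
Of these 6 genes TCF7 and AXIN1 rose, ZNRF3 and TCF7L2 fell, and WNT3 and FZD7 did not pass. The share of all tested genes with a match that rose or fell was not computed, so these calls have no background. The study chose targets of this microRNA by combining predictions of miRanda, PITA and TargetScan, which were not run here. Whether a match goes with a direction of change was therefore not tested. The regions had a median length of 1965.5 bases in the 20 Wnt genes and 1585 bases over all genes, and a match is a description and not a site.

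Another 4 lists of Wnt pathway genes were examined beside the 55. Of 29 genes for Wnt secretion, the destruction complex and β-catenin partners, all were tested, 5 rose and 5 fell, close to the 14.2% of all genes tested in each direction, and the median log2 fold change was 0.02. Scaled by library totals alone, 10 rose and 5 fell, but that scaling moved the median of all genes upwards by 0.067. The share of all genes that rose under it was not computed, so the 14.2% does not apply to these counts. CTNNB1, the gene of β-catenin itself, had 1220, 1076 and 1218 counts in si-SCR against 771, 711 and 715 in si-CyCoNP, and all si-CyCoNP libraries were lower (log2 fold change -0.79, SE 0.0851, edgeR adjusted p = 5.08e-08). TLE5, a short member of the Groucho family of co-repressors that bind TCF/LEF factors, had 613, 555 and 800 counts in si-SCR against 1300, 1255 and 1082 in si-CyCoNP (log2 fold change 0.79, SE 0.0842, edgeR adjusted p = 4.64e-08). BCL9, an adaptor that binds β-catenin, went from 13.2 ± 0.73 to 20.9 ± 0.756 FPKM (log2 fold change 0.60, edgeR adjusted p = 1.09e-05). The calls of these 3 genes held in all 14 alternatives.

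Of 23 extracellular modulators outside the rule, 7 were tested, none rose and 3 fell (14.2% of all genes tested in each direction), with a median log2 fold change of -0.67. KREMEN1 and KREMEN2 encode DKK1 receptors that help to remove LRP6 from the membrane. KREMEN1 had 82, 92 and 78 counts in si-SCR against 42, 29 and 23 in si-CyCoNP (log2 fold change -1.55, SE 0.224, edgeR adjusted p = 5.2e-06). KREMEN2 had 29, 31 and 18 counts in si-SCR against 10, 14 and 10 in si-CyCoNP (log2 fold change -1.31, SE 0.376, edgeR adjusted p = 0.00874), and without si-SCR replicate 2 its adjusted p was 0.0647. Of 15 genes of planar cell polarity and related receptors, 10 were tested, 2 rose and none fell, beside 14.2% of all genes tested in each direction, with a median of 0.04. These were SCRIB, a cell polarity scaffold (log2 fold change 0.40, edgeR adjusted p = 0.00534), and PTK7, a co-receptor of this branch (log2 fold change 0.25, edgeR adjusted p = 0.0388), whose call was lost when any 1 of the 6 libraries was left out (adjusted p from 0.0521 to 0.147). DAAM1, which links Dishevelled to actin, came next by p and did not pass (log2 fold change -0.43, adjusted p = 0.0669), but passed without si-SCR replicate 1 (adjusted p = 0.0394).

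Of 18 genes known as β-catenin targets in other tissues, 11 were tested, 2 rose and 4 fell, beside 14.2% of all genes tested that rose and 14.2% that fell, with a median log2 fold change of -0.26. Changes within 1 on the log2 scale were those of BAMBI, which rose (0.51, edgeR adjusted p = 0.00147), and CCND1, which fell (-0.40, edgeR adjusted p = 8.29e-05). JUN, an AP-1 subunit, had 316, 295 and 338 counts in si-SCR against 168, 157 and 152 in si-CyCoNP (log2 fold change -1.10, SE 0.111, edgeR adjusted p = 1.63e-08). TNFRSF19, a receptor of the tumour necrosis factor receptor family, had 64, 71 and 54 counts in si-SCR against 23, 13 and 26 in si-CyCoNP (log2 fold change -1.72, SE 0.274, edgeR adjusted p = 1.84e-05). MSX2, a homeobox gene of the neural crest, had 63, 40 and 56 counts in si-SCR against 28, 30 and 15 in si-CyCoNP (log2 fold change -1.23, SE 0.26, edgeR adjusted p = 0.000643). FOSL1, another AP-1 subunit, rose from 1, 0 and 3 counts in si-SCR to 5, 14 and 12 in si-CyCoNP (edgeR adjusted p = 0.00865), too few in si-SCR for a fold change to be given, and without si-CyCoNP replicate 2 its adjusted p was 0.0558.

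**Figure D4:**
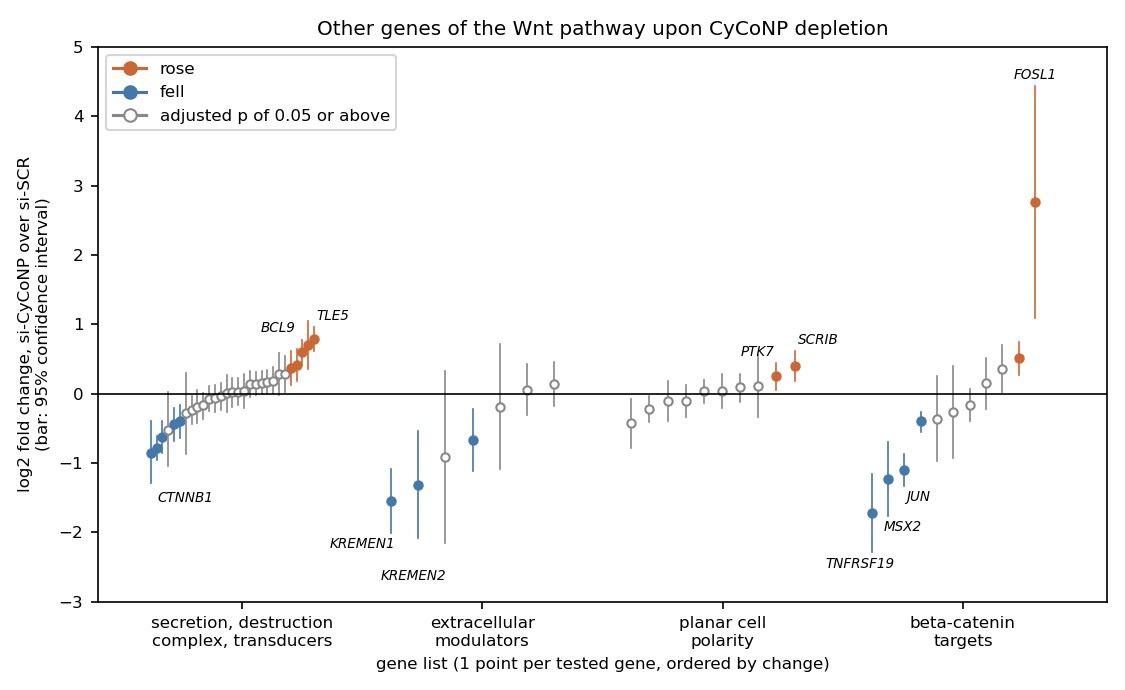
Log2 fold change of si-CyCoNP over si-SCR for each tested gene of 4 other Wnt pathway lists, ordered by change within a list, with 95% confidence intervals of the edgeR fit as bars and filled points at an adjusted p under 0.05. CTNNB1 lies at -0.79 and TLE5 at 0.79 in the first list, KREMEN1 at -1.55 in the second and TNFRSF19 at -1.72 in the fourth, and the wide interval of FOSL1 goes with its 0 to 3 counts per si-SCR library.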

How the data were processed

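Stranded total RNA libraries depleted of ribosomal RNA were trimmed by the authors with Trimmomatic 0.39 and Cutadapt 3.2, cleared of ribosomal reads with Bowtie2 2.4.2 and aligned to GRCh38 with STAR 2.7.7a (versions per the submitters' processing notes and the study's methods). The deposited counts are raw numbers of uniquely mapping fragments per Ensembl gene from STAR, which drops fragments shared by overlapping genes on 1 strand or by paralogs. A supplementary legend of the study mentions removal of duplicate reads, which its methods do not describe, and the count totals are far below the sequenced reads it states. The totals are therefore those of the count table and not of the sequencing. The deposited FPKM values were made by the authors from the same counts and scale them by gene length and library total. Groups and replicate numbers came from the sample titles. Nothing says whether the 3 libraries of a group came from separate cultures, so p-values measure only the spread between these libraries, which may be technical. Identifiers were matched to symbols for 60357 of 60676 genes. Positions and 3′ untranslated regions came from GENCODE 44 and promoters and the microRNA from RefSeq, all on GRCh38.

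A gene was kept if the mean of si-SCR or of si-CyCoNP was 1 FPKM or more. Counts were compared in edgeR 4.0.16 (R 4.3.3) with TMM factors and its quasi-likelihood test (two-sided, Benjamini-Hochberg adjustment over 13966 genes), after the script was tested on simulated data. The study's methods name DESeq2 and a log2 fold change beyond 1, and both were run as alternatives (DESeq2 1.42.0), beside limma 3.58.1 on log2(FPKM + 0.1) and log2(FPKM + 1), which understate changes of low genes. The other alternatives were DESeq2-type size factors or library totals alone, edgeR's own filter, no filter, a replicate block, and leaving out each library. Values after ± are standard deviations over 3 libraries, and 95% intervals are those of the edgeR fit. Floors from counts cover counting error only, whereas the intervals of the edgeR fit also include the spread between libraries that it estimated.

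The Wnt genes and lists were chosen with earlier results of these data known. Values are given for each Wnt gene that passed and the most abundant ones that did not. From the other lists genes that passed beyond 1 on the log2 scale are named, or else the 3 with the smallest p. BAMBI and CCND1 were added as the remaining β-catenin targets that passed. Members of lists of cell markers were named after their values were seen. Values of 1 marker gene, and the sum of the list that holds it, are not reported here. Protein sequences were not used here.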

Additional observations from a re-analysis of the deposited data

How the results depend on the processing

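FZD2, FZD6, LGR5 and TCF7L2 kept their direction and passed in all 14 alternatives, as did LINC02381, with log2 fold changes from -4.16 to -2.90. With a log2 fold change beyond 1 required, 1 of the 20 Wnt genes was higher and 2 were lower. The number that rose was 4, but 3 with DESeq2, 2 under limma with a pseudocount of 0.1 and 2 with a pseudocount of 1. Leaving out 1 library gave 1 (without si-CyCoNP replicate 2) to 5 (without si-SCR replicate 1). The number that fell was 7, but 6 with DESeq2, with library totals alone and in both limma fits, and 8 with no filter (40 Wnt genes tested). Leaving out 1 library gave 6 to 9. Genes passing in either direction over the whole table also differed, from 2866 under limma with a pseudocount of 0.1 to 4771 with the replicate block. Counts under the alternatives are therefore not to be set beside the 14.2% of the main fit. The median log2 fold change of -0.14 ranged from -0.29 (without si-SCR replicate 3) to -0.10 with 1 library left out, and was -0.08 with library totals alone and -0.05 in both limma fits. Directions turned only in genes that did not pass. FZD3 was at 0.04 with library totals alone, 0.04 with log2(FPKM + 0.1), 0.03 with log2(FPKM + 1) and -0.12 to 0.04 with 1 library left out (0.01, 0.00 and 0.04 where it turned). LEF1 was at 0.04 with library totals alone, 0.08 with log2(FPKM + 0.1), 0.03 with log2(FPKM + 1) and -0.35 to 0.25 with 1 library left out. With 1 library left out, DKK1 reached 0.06 (range -0.34 to 0.06), SFRP1 0.06 (range -0.29 to 0.06) and FZD7 -0.04 (range -0.04 to 0.18). The cause was not tested. Library totals alone moved the median of all genes by 0.067. In the list of secretion, destruction complex and transducer genes, 4 to 10 rose and 2 to 7 fell over the 14 alternatives, with 10 under library totals alone and 2 under limma with a pseudocount of 0.1. Among the extracellular modulators 1 to 3 fell, with 1 without si-SCR replicate 2, 2 without si-CyCoNP replicate 1 and 1 under limma. Among the planar cell polarity genes 1 to 2 rose, with 1 whichever library was left out, and 0 to 2 fell. Among the β-catenin targets 1 to 3 rose, with 1 without si-CyCoNP replicate 2 and 3 without si-SCR replicate 2, and 4 to 5 fell.

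The replicate number as a block gave 4 Wnt genes that rose and 7 that fell and changed none of their calls, while DAAM1 passed under it (adjusted p = 0.0391) and the genes passing over the whole table went from 3972 to 4771. Same-numbered libraries deviated together weakly (r = 0.0907, 0.0727 and 0.108 across genes), and every pair of unlike numbers had a negative r (-0.0666 to -0.0228). Deviations were taken from group means and cancel out over the libraries of a group. Positive values for like numbers therefore make the others negative, and that sign adds nothing on pairing. The limit set for pairing was an r of 0.1, which only replicate 3 exceeded. The main fit did not use the numbers, and these values do not settle whether they pair the libraries. With 3 libraries a group and at most 4799407 counts in each, changes of low genes such as WNT3 and LEF1 have intervals wider than 1 on the log2 scale.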
